A study of Mus musculus with 6 samples.

Results

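Smooth muscle cells wrap arteries and arterioles and pericytes lie on capillaries. In whole heart tissue these mural cells are followed here through 9 marker genes, taken by gene name from the authors' table of 55401 genes: Myh11, Tagln, Cnn1, Smtn, Lmod1, Mylk, Pdgfrb, Cspg4 and Notch3. Poly(A) RNA was sequenced from hearts of C57BL/6 mice aged 6 to 8 weeks, 3 given angiotensin II (labelled AngII induced, here Ang II) and 3 labelled control. Ang II is a peptide hormone that constricts vessels and raises blood pressure. The dose, route and duration of Ang II and the treatment of the control mice are not given in the sources used here, and the labels do not say which part of the heart was taken. The comparison asks how mural cell transcripts in the heart differ after Ang II, and the hearts are numbered 1 to 3 in each group. Whether each came from a separate animal is not stated, so p-values measure the spread between these samples. The RNA protocol text names an adipose type, but the tissue label is heart, and 10 cardiomyocyte markers summed to 39995 to 53198 CPM (counts scaled to a common library size by edgeR's TMM factors) in every library.

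In smooth muscle, a rise in calcium activates myosin light chain kinase, which phosphorylates the myosin light chain so that smooth muscle myosin pulls on actin filaments. Calponin, transgelin, smoothelin and leiomodin bind or organise those actin filaments. The genes of this contractile apparatus are controlled by serum response factor, which binds DNA at the CArG box, with its coactivator myocardin. Pericytes and vascular smooth muscle cells are recruited to vessels by platelet-derived growth factor B through its receptor PDGFRβ, carry the proteoglycan NG2 on their surface and receive Notch signals from the endothelium through Notch3.

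None of the 9 genes was called changed in Ang II hearts. All 9 passed the filter on low counts, and 0 of 9 had an adjusted p under 0.05 by edgeR (quasi-likelihood F test, p adjusted by Benjamini-Hochberg over the 16759 genes tested), where 0.0358% of all genes passed. At an unadjusted p under 0.05 stood 0 of 9 by edgeR, against 7.51% of all genes. DESeq2 also called 0 of 9, against 1.65% of all genes. At an unadjusted p under 0.05 DESeq2 had 1 of 9, Cnn1, against 9.48% of all genes, a share near the background. The log2 changes of the 9 ran from -0.16 for Notch3 to 1.37 for Cnn1 with a median of -0.02, beside a median of 0.01 over all genes tested. Without Ang II replicate 1 these medians were 0.12 and -0.01. Of the 9 log2 changes, 4 were above 0 (Cnn1, Tagln, Lmod1 and Cspg4) and 5 below (Notch3, Myh11, Mylk, Smtn and Pdgfrb). In bulk tissue, fewer cells of a type and less RNA per cell cannot be told apart, so none of these values is a count of cells.

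The libraries held 51202916 to 63564869 estimated counts, with 35.8% to 37.4% from mitochondrial genes in Ang II and 37.3% to 47.6% in control libraries. Ang II replicate 1 stood apart from the other libraries. Over 15623 genes, the deviation of its log2 CPM from the mean of the 6 libraries fell with transcript length (Spearman correlation -0.297), against correlations of 0.127 and 0.0971 in Ang II replicates 2 and 3 and -0.0199 to 0.281 in control. The 0.281 belonged to control replicate 2, nearly as far from 0 in the other direction. These correlations describe genes that are not independent, and deviations from a shared mean are linked between libraries. For each of the 9 genes whose sign or size turned on this library, the value without it is given too, and list medians that changed sign are given both ways.

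Per unit of transcript length the 9 genes covered a wide range. Smtn, which encodes smoothelin, an actin-binding protein of contractile smooth muscle, had the highest level, 22.8 ± 9.02 FPKM in Ang II and 22.8 ± 5.91 FPKM in control hearts (mean ± SD, n = 3 each). Tagln followed with 17.2 ± 4.72 and 11.95 ± 0.686 FPKM, and Pdgfrb with 10.5 ± 2.67 and 10.3 ± 2.34 FPKM in Ang II and control hearts. Below these stood Myh11 at 3.76 ± 1.64 and 3.86 ± 0.947 FPKM and Notch3 at 2.61 ± 0.311 and 2.83 ± 0.492 FPKM. Mylk, Cspg4, Lmod1 and Cnn1 were lowest, with means between 1.03 and 1.53 FPKM in Ang II and between 0.405 and 1.58 FPKM in control hearts. The order of the 9 means was the same in both groups. In Ang II hearts the mean ± SD ranges of neighbours overlapped in 6 of 8 steps, the exceptions being Pdgfrb over Myh11 and Notch3 over Mylk. In control hearts they overlapped in 4 of 8 steps, and Smtn over Tagln and Lmod1 over Cnn1 were also apart.

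Of the 9 genes, 6 have a promoter in the RefSeq table (build GRCm38.p6), covering 250 bases before to 50 bases after an annotated start. Myh11, Tagln and Pdgfrb have none there and were not searched. The exact CArG box was found in 0 of the 6, against 1.63% of 32851 promoters. With so rare a match, 0 of 6 says little about these genes. A match 1 letter off was found in 2 of 6 (Lmod1 and Cspg4), against 19.9%. The MCAT motif CATTCC, bound by TEAD factors, was found in 3 of 6 (Lmod1, Mylk and Smtn), against 14.7%, and TGGGAA, a core of the motif of the Notch effector RBPJ, in Smtn, against 25.6% of all promoters. Both strands were searched. The matches are descriptions of these windows, and say nothing of binding by the factors. Shown are Cnn1, the gene with the largest log2 change, Cspg4, the gene whose groups did not overlap in CPM, and Lmod1, the one with most matches. Capitals mark the CArG matches 1 letter off and, in Lmod1, also the MCAT motif read on the other strand, GGAATG.
Cnn1 (chr9:22099003-22099302, plus strand): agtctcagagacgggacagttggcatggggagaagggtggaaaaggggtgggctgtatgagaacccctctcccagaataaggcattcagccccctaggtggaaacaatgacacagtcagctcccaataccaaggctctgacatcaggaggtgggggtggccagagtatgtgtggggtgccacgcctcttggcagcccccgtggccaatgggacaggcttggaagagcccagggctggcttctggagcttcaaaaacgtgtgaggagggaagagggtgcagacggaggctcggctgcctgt
Cspg4 (chr9:56864854-56865153, plus strand): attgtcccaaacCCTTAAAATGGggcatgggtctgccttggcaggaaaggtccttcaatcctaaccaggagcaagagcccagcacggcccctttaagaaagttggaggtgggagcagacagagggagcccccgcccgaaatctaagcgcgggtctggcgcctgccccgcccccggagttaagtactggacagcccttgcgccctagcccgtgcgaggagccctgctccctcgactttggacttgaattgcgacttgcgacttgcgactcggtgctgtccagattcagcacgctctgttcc
Lmod1 (chr1:135324563-135324862, plus strand): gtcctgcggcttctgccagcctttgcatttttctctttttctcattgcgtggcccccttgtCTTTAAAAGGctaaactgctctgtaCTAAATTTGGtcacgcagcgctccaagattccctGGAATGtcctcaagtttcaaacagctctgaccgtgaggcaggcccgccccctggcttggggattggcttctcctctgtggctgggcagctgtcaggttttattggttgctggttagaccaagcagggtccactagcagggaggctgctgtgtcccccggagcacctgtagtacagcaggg
The Cspg4 capitals join 2 overlapping CArG matches, from base -238 to base -228 counted from the start. In Lmod1 the CArG matches begin at bases -189 and -164 and the MCAT motif at base -130. The Cnn1 window holds none of the motifs searched.

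Motor and kinase genes of smooth muscle were close in the groups apart from 1 library. Myh11 (ENSMUSG00000018830; GRCm38 chromosome 16, 14194535 to 14291372, minus strand, 41 exons in its longest transcript) encodes the smooth muscle myosin heavy chain, the most specific marker of differentiated smooth muscle. It had 18.3, 35.9 and 33.9 CPM in Ang II replicates 1, 2 and 3, against 33.0, 35.7 and 27.6 CPM in control replicates 1, 2 and 3. Ang II replicate 1 was the lowest of all 6, and the other Ang II hearts lay near the highest control heart. The log2 change was -0.13 (SE 0.27; edgeR adjusted p = 0.919), which as a fold is 0.915 with a 95% interval of 0.583 to 1.43. Without Ang II replicate 1 the log2 change turned to 0.12 (SE 0.13; edgeR adjusted p = 0.735).

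Mylk (ENSMUSG00000022836; chromosome 16, 34745210 to 35002420, plus strand) encodes myosin light chain kinase. It had 14.3, 20.2 and 19.4 CPM in Ang II replicates 1, 2 and 3, against 17.2, 20.9 and 19.7 CPM in control replicates 1 to 3. The groups overlapped, with Ang II replicate 1 again lowest, and the log2 change of -0.10 (SE 0.18; edgeR adjusted p = 0.902) turned to 0.04 without it. The gene also encodes telokin, a short smooth muscle protein made from its last exons, and gene-level counts do not separate it from the kinase.

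Actin-associated genes went different ways in Ang II replicate 1. Cnn1 (ENSMUSG00000001349; chromosome 9, 22099216 to 22109630, plus strand) encodes calponin 1, which binds actin and restrains the myosin ATPase. It had 5.80, 1.55 and 2.32 CPM in Ang II replicates 1, 2 and 3, against 1.09, 0.751 and 1.89 CPM in control replicates 1, 2 and 3. Ang II replicate 1 was far above the rest, while Ang II replicate 2 lay below control replicate 3, so the groups overlapped. These rest on 252, 109 and 165 estimated counts in Ang II and 50, 50 and 104 in control libraries. The log2 change of 1.37 (SE 0.58) gave an unadjusted p of 0.0518 and an adjusted p of 0.664 by edgeR, and the fold of 2.58 had a 95% interval of 0.990 to 6.70. With that library left out the log2 change was 0.64 (SE 0.44; edgeR adjusted p = 0.563).

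Tagln (ENSMUSG00000032085; chromosome 9, 45929619 to 45936058, minus strand) encodes transgelin, or SM22α, an actin-binding protein and early smooth muscle marker. It had 57.5, 26.0 and 30.4 CPM in Ang II replicates 1, 2 and 3, against 34.1, 22.5 and 23.7 CPM in control replicates 1, 2 and 3. Ang II replicate 1 was the highest of all 6, control replicate 1 came next, and the groups overlapped in CPM. The log2 change was 0.50 (SE 0.34; edgeR adjusted p = 0.760) with all libraries, and with Ang II replicate 1 left out 0.08 (SE 0.20; edgeR adjusted p = 0.910). On the FPKM scale the Tagln values were 22.4, 13.2 and 15.8 in Ang II and 12.6, 11.95 and 11.3 in control hearts and did not overlap. Of the 9 genes 2 were higher without overlap in FPKM, Tagln and Lmod1, against 8.72% of 12095 genes with an FPKM of at least 0.5 in 3 libraries. FPKM was used as deposited, without TMM scaling, whose factors ran from 0.795 in control replicate 1 to 1.15 in control replicate 2. In CPM the groups overlapped for both Tagln and Lmod1, so the separation depends on the scale. Tagln lies opposite the antisense gene Gm48529, with 78 to 166 counts, and its end overlaps Pcsk7 on the other strand, with 137 to 930 counts. Since strand-specific counting is not stated, such reads cannot be told apart. Smtn and Mylk also overlap genes on the other strand, among them Gm11946 (2 to 25 counts) for Smtn and E130310I04Rik (61 to 111 counts) for Mylk.

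Smtn (ENSMUSG00000020439; chromosome 11, 3517523 to 3540612, minus strand) ran the other way. It had 70.3, 117 and 122 CPM in Ang II replicates 1, 2 and 3, against 97.6, 117 and 111 CPM in control replicates 1, 2 and 3. Ang II replicate 1 was the lowest of the 6, and the groups overlapped. The log2 change was -0.07 (SE 0.23; edgeR adjusted p = 0.947) with all libraries, and with Ang II replicate 1 left out 0.14 (SE 0.10; edgeR adjusted p = 0.581). Lmod1 (ENSMUSG00000048096; chromosome 1, 135324807 to 135368065, plus strand) encodes leiomodin 1, which nucleates actin filaments in smooth muscle. It had 5.47, 4.21 and 4.02 CPM in Ang II replicates 1, 2 and 3, against 4.16, 3.78 and 3.05 CPM in control replicates 1, 2 and 3. The Ang II values were mostly the higher ones, though replicate 3 lay below control replicate 1, and the log2 change was 0.32 (SE 0.22; edgeR adjusted p = 0.764), a fold of 1.25 with a 95% interval of 0.866 to 1.79. On the FPKM scale Lmod1 was at 1.07, 1.08 and 1.05 in Ang II and 0.775, 1.01 and 0.732 in control replicates 1, 2 and 3, without overlap.

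**Figure D1:**
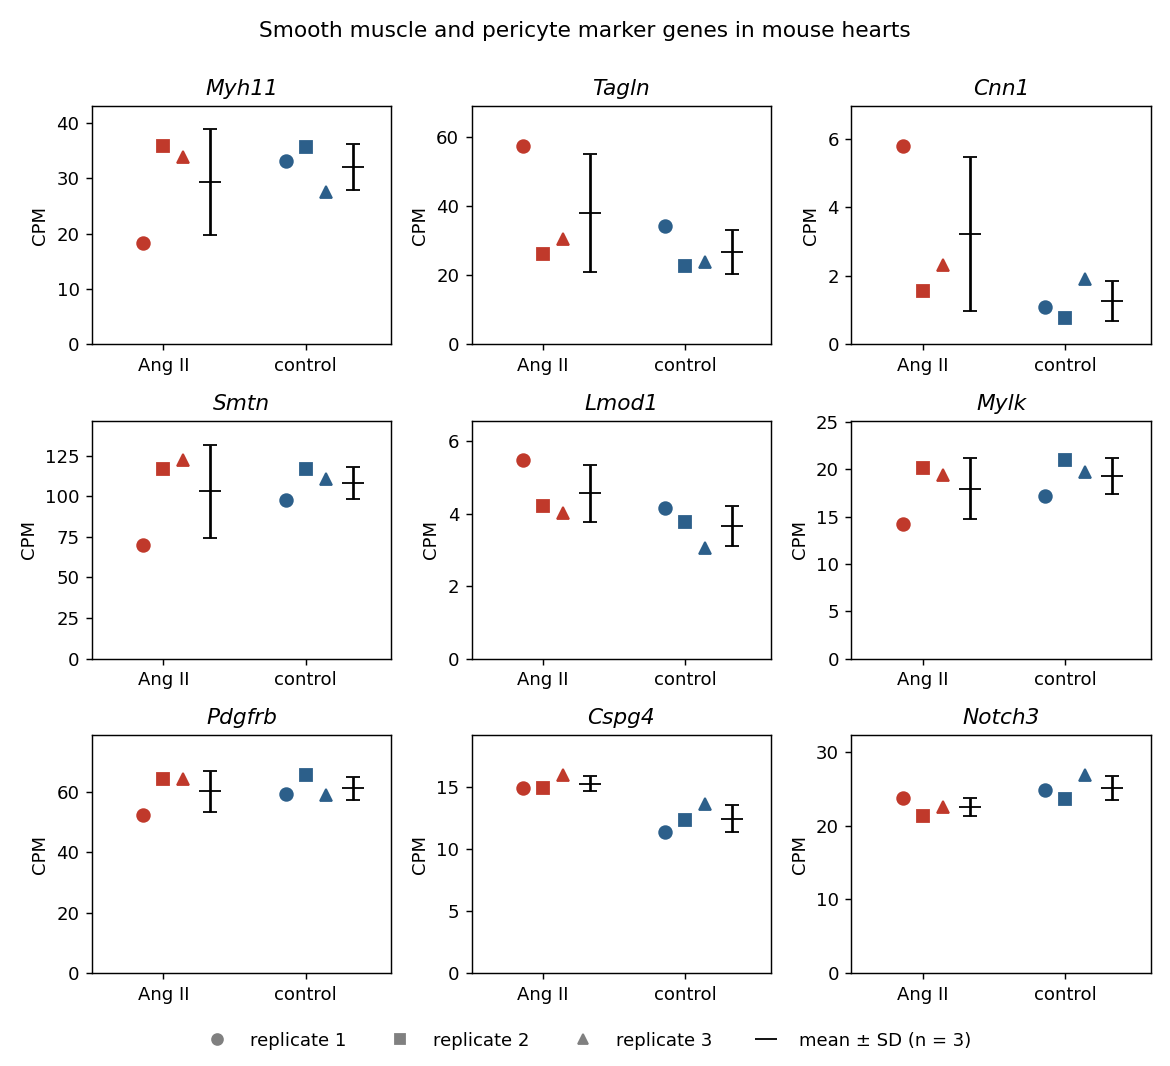
TMM-scaled CPM (y axis, from 0) of the 9 genes in each library, Ang II in red and control in blue. Symbols give the replicate number and bars the mean ± SD (n = 3). Ang II replicate 1 is highest for Tagln, Cnn1 and Lmod1 and lowest for Myh11, Smtn, Mylk and Pdgfrb. Cspg4 is the panel without overlap in CPM, with 14.9 to 16.0 CPM in Ang II and 11.4 to 13.6 CPM in control hearts.

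Surface receptors and the proteoglycan of mural cells varied less between libraries. Cspg4 (ENSMUSG00000032911; chromosome 9, 56865033 to 56899870, plus strand) encodes NG2, a chondroitin sulfate proteoglycan used to recognise pericytes. It had 14.9, 14.9 and 16.0 CPM in Ang II replicates 1, 2 and 3, against 11.4, 12.4 and 13.6 CPM in control replicates 1, 2 and 3. In CPM all 3 Ang II hearts were above all 3 control hearts. In FPKM the groups overlapped, with 0.967, 1.27 and 1.38 in Ang II against 0.701, 1.09 and 1.08 in control replicates 1, 2 and 3. The log2 change was 0.29 (SE 0.14), a fold of 1.23 with a 95% interval of 0.971 to 1.55, an unadjusted p of 0.0775 and an adjusted p of 0.695 by edgeR. Leaving out Ang II replicate 1 gave nearly the same value (log2 change 0.31, SE 0.12; edgeR adjusted p = 0.297). Of the 9 genes 1 was thus higher without overlap in CPM, against 7.97% of all genes, and 0 of 9 were lower without overlap, against 9.21%.

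Notch3 (ENSMUSG00000038146; chromosome 17, 32120820 to 32166852, minus strand) encodes a Notch receptor made mainly by vascular smooth muscle cells and pericytes. It had 23.7, 21.4 and 22.5 CPM in Ang II replicates 1, 2 and 3, against 24.8, 23.6 and 26.9 CPM in control replicates 1, 2 and 3. The groups touched, since Ang II replicate 1 lay just above control replicate 2. The log2 change was -0.16 (SE 0.13; edgeR adjusted p = 0.805), and its 95% interval as a fold was 0.720 to 1.12. Notch3 kept a negative log2 change in each of 18 alternatives, from -0.20 to -0.02. It overlaps the antisense gene Gm17276, which had 22 to 66 counts.

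Pdgfrb (ENSMUSG00000024620; chromosome 18, 61045150 to 61085061, plus strand) encodes PDGFRβ, which fibroblasts also carry. It had 52.3, 64.3 and 64.2 CPM in Ang II replicates 1, 2 and 3, against 59.3, 65.7 and 59.0 CPM in control replicates 1, 2 and 3. Apart from the low Ang II replicate 1 the values lay within the control range. With a log2 change of -0.02 (SE 0.15; edgeR adjusted p = 0.970) its fold of 0.983 had a 95% interval of 0.771 to 1.25, and the sign turned to 0.07 without Ang II replicate 1.

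**Figure D2:**
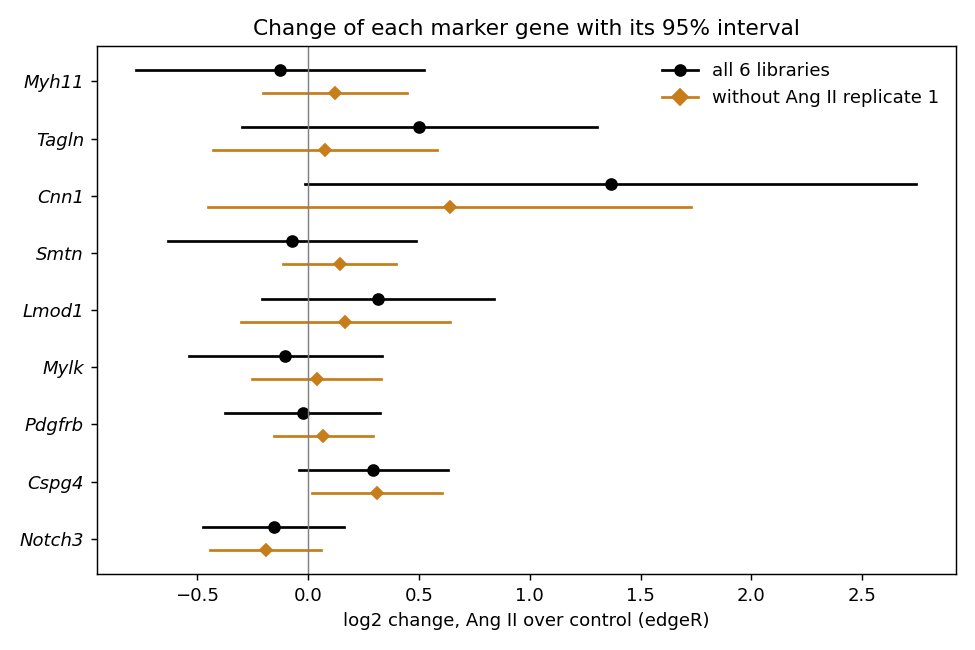
Log2 change of each gene, Ang II over control, from edgeR (x axis), with its 95% interval, for all 6 libraries (black circles) and without Ang II replicate 1 (orange diamonds). With all libraries every interval holds 0. Without Ang II replicate 1 Myh11, Smtn, Mylk and Pdgfrb stand on the other side of 0, and the Cspg4 interval of 0.02 to 0.61 does not hold 0 although its adjusted p is 0.297.

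Within the Ang II group, replicates 2 and 3 lay close together for most of the 9 genes and replicate 1 lay apart. Relative to the mean log2 CPM of Ang II replicates 2 and 3, replicate 1 was 3.06-fold for Cnn1, 2.05-fold for Tagln and 1.33-fold for Lmod1. It was 0.525-fold for Myh11, 0.588-fold for Smtn, 0.721-fold for Mylk and 0.814-fold for Pdgfrb, while Notch3 (1.08-fold) and Cspg4 (0.968-fold) differed little. The genes with the shortest transcripts, Tagln (1595 nt for the longest annotated) and Cnn1 (2381 nt), were those with the highest ratios. Smtn (3386 nt) and Lmod1 (3948 nt), of similar length, went opposite ways, and the longest, Notch3 (8016 nt) and Cspg4 (8121 nt), were close to the other Ang II libraries. With a correction for transcript length, chosen after the values were seen, 0 of 9 were called by edgeR (0.0717% of all genes). The log2 changes were then 0.40 for Tagln, 1.34 for Cnn1, 0.38 for Lmod1 and 0.42 for Cspg4. At an unadjusted edgeR p under 0.05 stood 2 of 9, Cspg4 and Cnn1, against 1359 of 16739 genes, and these shares were not compared by a test. The part of transcript length in these values was otherwise not tested. Without Ang II replicate 1 edgeR again called 0 of 9, where 0.73% of 17661 genes passed. At an unadjusted p under 0.05 it had 1 of 9, Cspg4, against 15.4% of all genes, so that count was not above the background.

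**Figure D3:**
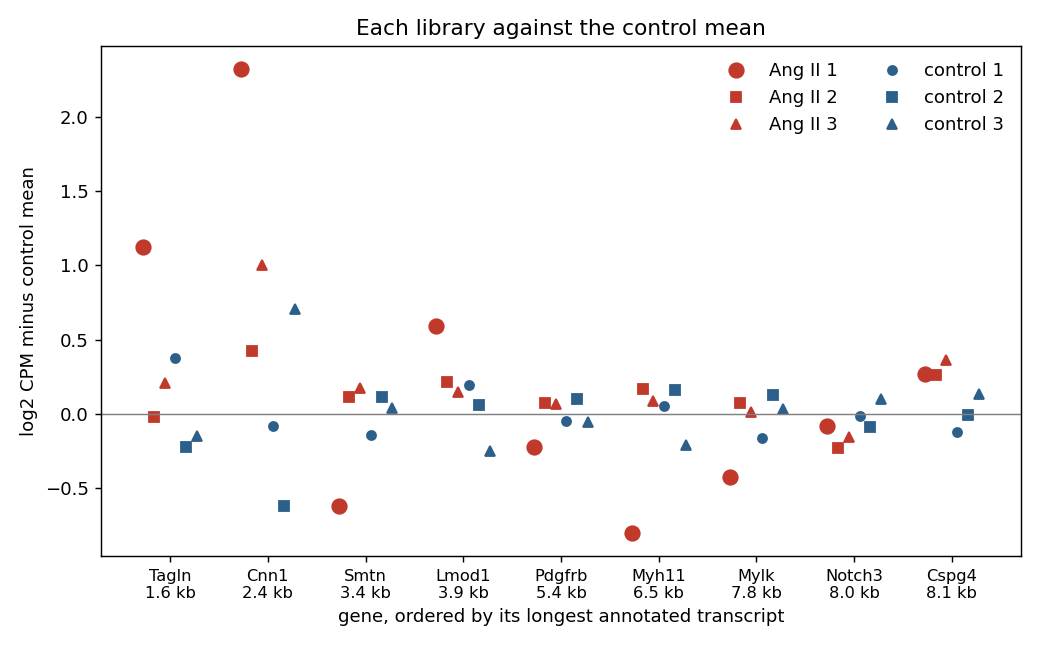
Log2 CPM of each library minus the mean of the 3 control libraries (y axis) for the 9 genes, ordered by the length of the longest annotated transcript (x axis, in kilobases). Large red circles are Ang II replicate 1, from 2.32 for Cnn1 to -0.80 for Myh11. Cspg4 is the gene for which all Ang II libraries lie above all control libraries, and Ang II replicates 2 and 3 lie within about 0.4 of the control mean except for Cnn1, where they reach 1.00.

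The profiles of the 9 genes over libraries were compared in pairs. Over the 6 libraries Smtn and Mylk had a Pearson r of 0.963 in log2 CPM, Myh11 and Pdgfrb 0.944 and Tagln and Cnn1 0.792, while Tagln and Mylk had -0.975. These values share their libraries, include the library that stood apart and are descriptions. Among 6125 other genes with a mean of at least 2 FPKM, those most like Myh11 were Ptcd3 and Cox11 (r of 0.997 each). The most like Tagln were Ccdc71 (0.993) and Ppie (0.990), and the most like Cspg4 were Wdr61 (0.995) and Nab2 (0.986). For Cnn1 they were Acot9 and Nbl1 (0.993 each), for Smtn St3gal1 (0.997) and Cox15 (0.996), and for Lmod1 Zcrb1 (0.991) and Ptrh2 (0.987). For Mylk they were Gigyf1 (0.993) and Rcn2 (0.989), for Pdgfrb Ddx6 (0.992) and Nucb1 (0.990), and for Notch3, the lowest, Bmp1 (0.970) and Emc1 (0.964). The most like the mean of the 9 standardised genes was Hip1r (0.993), then Txnl1 (0.985). As the highest picks among 6125 genes over only 6 libraries, these r values are high by selection and show no shared role.

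Other genes of smooth muscle contraction did not pass as single genes. Of 16 tested, 0 passed edgeR over all genes, 1 was higher (Des) and 1 lower (Synm) at an unadjusted edgeR p under 0.05. DESeq2 called 1, Des. The median log2 change was 0.20 with all libraries and -0.05 without Ang II replicate 1. Des encodes desmin, the intermediate filament of all muscle, and had 2102, 2133 and 2038 CPM in Ang II against 1244, 1464 and 1290 CPM in control replicates 1, 2 and 3 (log2 change 0.65, SE 0.16; edgeR adjusted p = 0.449; DESeq2 adjusted p = 0.000318). Cardiomyocytes also make desmin. Synm (synemin, a desmin partner) had a log2 change of -0.46 (SE 0.19). Acta2, smooth muscle α-actin, had 92.7, 63.2 and 67.2 CPM in Ang II against 71.4, 66.6 and 66.1 CPM in control replicates 1, 2 and 3 (log2 change 0.13, SE 0.18). Acta2 was chosen after its values were seen, and with Tagln and Cnn1 it was highest in Ang II replicate 1. The 13 genes of light chain phosphorylation and the RhoA pathway had 0 called by edgeR and DESeq2 and 0 at an unadjusted p under 0.05. Their median was -0.07 with all libraries and 0.08 without Ang II replicate 1.

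Among 10 regulators of serum response factor and smooth muscle identity, 0 passed edgeR. The 1 with an unadjusted p below 0.05 was lower, and DESeq2 called it. That was Klf4, a transcription factor that represses smooth muscle genes, with 23.2, 25.8 and 25.2 CPM in Ang II against 32.5, 42.0 and 39.7 CPM in control replicates 1, 2 and 3 (log2 change -0.62, SE 0.15; edgeR adjusted p = 0.449; DESeq2 adjusted p = 0.0384). The groups did not overlap. The coactivator Mrtfb had a log2 change of 0.49 (SE 0.29). The median of the 10 was -0.0022 with all libraries and 0.09 without Ang II replicate 1.

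Most other pericyte markers had log2 changes below 0, without a call. Of 14 tested, 0 passed edgeR or DESeq2, 1 was lower at an unadjusted p under 0.05 (Mcam), 11 log2 changes were below 0 and 3 above, and the median was -0.15. Mcam, an adhesion molecule of pericytes and endothelium, had 34.0, 39.4 and 36.1 CPM in Ang II against 44.6, 48.8 and 43.8 CPM in control replicates 1, 2 and 3 (log2 change -0.32, SE 0.13; edgeR adjusted p = 0.658). Anpep (aminopeptidase N) had -0.52 (SE 0.27), and -0.30 without Ang II replicate 1. The summed level of these 14 was 461, 689 and 660 CPM in Ang II and 640, 765 and 679 CPM in control replicates 1, 2 and 3. Its largest parts in Ang II replicates 1, 2 and 3 were Rgs5 (206, 388 and 367 CPM) and Abcc9 (60.4, 131 and 127 CPM). In Ang II replicate 1 these were the lowest of all libraries, while others, among them Vtn and Cd248, were the highest.

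The ligands of the mural cell receptors gave no call either. Of 6 genes for PDGF ligands and related receptors, 0 passed edgeR or DESeq2 and 1 was lower at an unadjusted p under 0.05, Pdgfc, with 0.598, 0.740 and 0.562 CPM in Ang II against 1.05, 1.22 and 1.11 CPM in control replicates 1, 2 and 3 (log2 change -0.83, SE 0.30). Pdgfb, the ligand that recruits pericytes, had 51.9, 33.7 and 35.7 CPM in Ang II against 55.3, 49.6 and 51.8 CPM in control replicates 1, 2 and 3 (log2 change -0.37, SE 0.20; edgeR adjusted p = 0.719). The Pdgfb log2 change was -0.59 with Ang II replicate 1 left out (edgeR adjusted p = 0.0716). Of 15 Notch ligands, receptors and targets, 0 passed edgeR or DESeq2, 11 log2 changes were below 0, and Dll1, a Notch ligand, was the 1 lower at an unadjusted p under 0.05 (log2 change -0.67, SE 0.19). The Notch effector Rbpj had -0.45 (SE 0.21).

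Relatives made in other cells were also measured. Of 16 paralogs tested among 19, 0 passed edgeR or DESeq2 and 1 was higher at an unadjusted p under 0.05, Lmod2, the cardiac leiomodin. It had 248, 747 and 712 CPM in Ang II against 279, 292 and 267 CPM in control replicates 1, 2 and 3 (log2 change 1.03, SE 0.40; edgeR adjusted p = 0.630). Lmod2 passed once Ang II replicate 1 was left out (log2 change 1.39, SE 0.08; edgeR adjusted p = 0.00523), whereas Lmod1 stood at 0.17 (SE 0.19; edgeR adjusted p = 0.749), and the difference between them was not tested. Mylk3, the cardiac light chain kinase, had 153, 235 and 222 CPM in Ang II against 262, 306 and 266 CPM in control replicates 1, 2 and 3 (log2 change -0.45, SE 0.20; edgeR adjusted p = 0.676), and its log2 change was -0.28 without Ang II replicate 1.

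Lists of markers of other cell types each had 0 called by edgeR over all genes. Endothelial markers had 4 of 10 lower at an unadjusted edgeR p under 0.05 and 6 of 10 lower without overlap in CPM. Over all genes 7.51% had such a p in either direction and 9.21% were lower without overlap. Kdr was at -0.77 (SE 0.16) and Vwf at -0.59 (SE 0.14), both called by DESeq2. Of the 10, 3 were above 0, Cldn5 at 0.35, Egfl7 at 0.23 and Esam at 0.04. Cardiomyocyte markers had all 10 log2 changes above 0, a median of 0.28 and 1 higher at an unadjusted p under 0.05, Ttn. Actn2 followed. Fibroblast markers had 1 higher (Mfap5) and 3 lower (Col1a1 among them), macrophage markers 1 lower (Adgre1, then Cd163) and large vessel wall genes 2 higher (Mgp and Mfap4). Of the 8 large vessel wall genes, 5 log2 changes were above 0 and 3 below. The largest in size was negative, Fbln5 at -1.25 (SE 0.53), with an unadjusted edgeR p of 0.0523 and no overlap of the groups in CPM. Of 5 atrial genes 3 were tested, while Myl7 and Bmp10 did not pass the filter on low counts. Myl4 (log2 change 1.56, SE 0.26) and Nppa were higher at an unadjusted edgeR p under 0.05, and both were called by DESeq2. The third, Sln, was also higher at that p. It was scarcely detected, with means of 0.351 CPM in Ang II and 0.0242 CPM in control hearts. Since Sln passed the filter only through the Ang II hearts, its p is not counted as support. Red blood cell genes had 5 of 5 lower at that p, with the smallest p in Alas2 (-2.11) and Hba-a2 (-1.60) and 4 of the 5 called by DESeq2. The macrophage sum was 468 CPM in Ang II replicate 1 and 221 and 244 CPM in replicates 2 and 3, against 281 to 310 CPM in control hearts. The markers went different ways in Ang II replicate 1. Lyz2 (172 CPM) and C1qa (86.9 CPM) were the highest of all libraries there. Cd163 (5.70 CPM) was the lowest, and Adgre1 (4.83 CPM) was below all control hearts. The summed cardiomyocyte level was 44553 to 53198 CPM in Ang II and 39995 to 46115 CPM in control hearts, and that of the 9 mural genes 263 to 315 and 283 to 302 CPM. The part of these cell types in the values of the 9 genes was not tested.

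**Figure D4:**
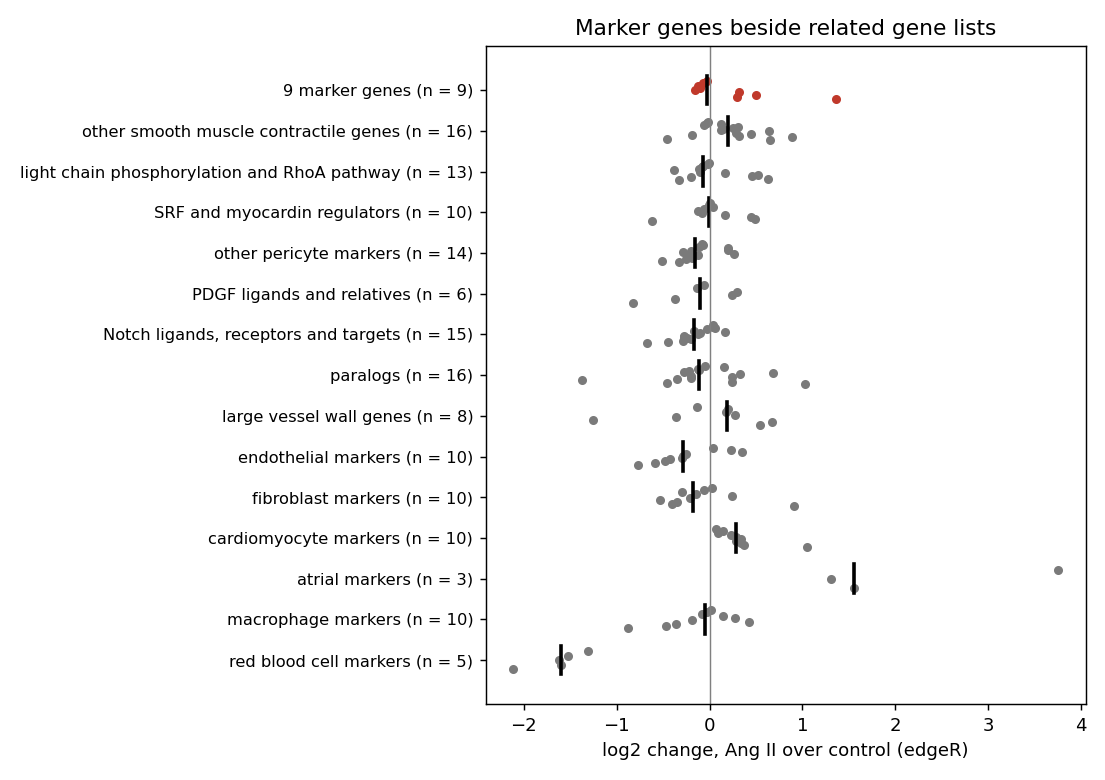
Log2 change of each tested gene, Ang II over control, from edgeR (x axis), for the 9 genes (red) and the 14 other lists (grey), with the median of each list as a black bar. The 9 genes centre at -0.02 with Cnn1 at 1.37 to the right, between cardiomyocyte markers at 0.28 and endothelial markers at -0.29.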

How the data were processed

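RNA of 3 Ang II and 3 control heart samples was analysed. The deposited table gives FPKM and whole-number estimated counts made by the authors for each library, with 0.0001 FPKM standing for 0. The submitters' processing notes list StringTie 1.3.0, HISAT2 2.0 and Bowtie 0.12.2 but not what each did, and the build mm8. Of the 55141 gene IDs found in both the table and GENCODE M21, 94.2% carry GRCm38 coordinates, so GRCm38 is used. Columns not used numbered 0.

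Estimated counts were tested with edgeR 4.0.16 in R 4.3.3 (quasi-likelihood, TMM scaling, filterByExpr, two-sided, adjusted p threshold 0.05), although such estimates are not raw counts and their dispersion is treated as if they were. Standard errors come from the log2 change and F statistic, and 95% intervals from its t distribution. CPM uses TMM-scaled library sizes and FPKM is used for levels between genes and for overlap of the groups. DESeq2 1.42.0 and limma 3.58.1 on log2(FPKM + 0.5) or after voom were alternatives, and scripts were tested on simulated data. Figures used matplotlib 3.10.9.

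The 9 genes and 14 other lists were chosen with earlier results of these data known. Named genes are the 9, the 2 of each list with the smallest p, and the 2 most correlated with each profile; others were chosen after their values were seen. Strandedness is not given in the sources used here. Named genes of the light chain phosphorylation list are not reported here.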

Additional observations from a re-analysis of the deposited data

How the results depend on the processing

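With 0 of 9 genes called, the count was 0 in all 18 alternatives, of which the length correction was chosen after seeing the data. Adjusted p values of the 9 genes ran from 0.172 (Cspg4, voom with quality weights) to 0.999. The median log2 change of the 9, -0.02, was 0.13 with quality weights and -0.073 to 0.12 when 1 library was left out. With 1 library left out, Myh11 ran from -0.30 to 0.12, Smtn from -0.21 to 0.14, Mylk from -0.19 to 0.039 and Pdgfrb from -0.073 to 0.069. Signs of near-zero changes turned, and the cause was not tested. Pdgfrb was at 0.019 by limma on FPKM with each pseudocount (0.01909, 0.01934 and 0.01875), 0.072 with quality weights, 0.058 with the length correction, 0.069 without Ang II replicate 1 and 0.030 without control replicate 2. Without Ang II replicate 1 Myh11 was at 0.12, Smtn at 0.14 and Mylk at 0.039, and with quality weights at 0.12, 0.13 and 0.011; Mylk was at 0.0062 with the length correction. Tagln, Cnn1, Lmod1, Cspg4 and Notch3 kept their sign in all 18, though Tagln ranged from 0.08 to 0.71 and Cnn1 from 0.50 to 1.79.

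Over all genes, 6 calls became 12 with no filter, 12 with the length correction, 276 with DESeq2, 348 with quality weights, 3 by limma with a pseudocount of 0.1 or 1, 129 without Ang II replicate 1, 2 without Ang II replicate 2 and 0 without any 1 of the other libraries. The other lists had 0 calls by edgeR, 10 by DESeq2, 14 with quality weights and 0 to 2 with 1 library left out. Without Ang II replicate 1 Lmod2 passed as higher and Fbn1 as lower (log2 change -0.91, SE 0.12, edgeR adjusted p = 0.0457). A replicate block, with the number as a term, left 0 genes called and 0 of the 9. Deviations of same-numbered libraries correlated at 0.210, 0.241 and -0.0378, and those of Ang II replicate 3 and control replicate 2 at 0.204. Deviations within a group sum to 0 and are not independent, so whether the numbers pair the samples cannot be told from these values. With 3 hearts a group, changes up to the ends of the 95% intervals given are compatible with these data.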
